A study of Mus musculus with 18 samples.

Results

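The genes described here make ribosomes: 48 genes for RNA polymerase I and for the factors that modify, cleave and assemble ribosomal RNA into the 2 ribosomal subunits. They were chosen by symbol and not by any measured value, though with earlier results of these data known. On the arrays, 47 of the 48 had a probe set annotated with that symbol alone, and *Mrto4*, whose probe set is shared with other annotated symbols, was not measured on its own. These 47 genes held 99 of the 45037 probe sets, of which 97 were among the 27773 bright enough to be tested, so that all 47 were tested among 12121 genes. Below, a gene is its tested probe set of highest mean, and counts of genes use that probe set alone.

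Newly transcribed RNA was labelled with 4-thiouridine (4sU), a uridine analogue that allows RNA made during the pulse to be purified, in NIH-3T3 cells, a line of mouse fibroblasts. The cells received mock, IFNα or IFNγ (each IFN at 100 U/ml) for 1 h, each with cycloheximide (CHX), an inhibitor of protein synthesis, or with its solvent alone from 15 min earlier. The 4sU was present at 500 µM from 30 to 60 min, so the RNA of CHX-treated cells was made in the last 30 of 75 min of CHX. Each of the 6 treatments had 3 biological replicates on 1 array each, 18 arrays in all, and values are the intensities as deposited, on a linear scale unless log2 is stated.

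Ribosome production starts in the nucleolus, where RNA polymerase I transcribes the ribosomal DNA into a long precursor. Small nucleolar ribonucleoproteins (snoRNPs) guide its chemical modification, a large particle called the small subunit processome folds and cuts its 5′ part, and separate sets of factors finish the 40S and the 60S subunits. The genes of these factors are themselves transcribed by RNA polymerase II, are among the most active in growing cells, and many are targets of the transcription factor Myc. The arrays read their messenger RNA, not ribosomal RNA.

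The arrays were those of fibroblasts. All 10 fibroblast markers measured, among them *Col1a2* and *Vim*, lay above an intensity of 100, against 0 of 6 epithelial and 0 of 4 endothelial markers. Of 5 leukocyte markers only *Cd68* lay above 100 (median 129, from 53.5 to 284 over the arrays). *Ptprc*, *Itgam*, *Cd3e* and *Adgre1* stayed between 3.3 and 6. The summed leukocyte intensity was 98.8 to 132 in mock, 79.3 to 93.8 with IFNα and 72.3 to 129.9 with IFNγ, against 167 to 304 with CHX, 176 to 295 with IFNα and CHX and 166 to 283 with IFNγ and CHX. The rise of this sum lay in *Cd68*, and the part of that signal in the CHX results was not tested. The array medians lay between 9.6 and 10.8, and replicates of a treatment correlated at 0.959 to 0.995 (log2 values). The upper quartiles were 131 to 141 on the arrays without CHX and 115 to 132 on those with CHX. Replicate 1 of CHX and replicate 1 of IFNγ with CHX had the lowest, 116 and 115. Quantile normalization, which makes the quartiles equal, is among the alternatives given at the end.

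The labelled RNA of many genes of the group was lower with CHX, and that of none was higher in CHX against mock. In CHX against mock, 24 of 47 genes were lower and 0 higher (limma, Benjamini-Hochberg adjusted p under 0.01), where 9.92% of all genes were lower and 4.57% higher. At least 2-fold lower were 10 of the 24 (5.41% of all genes). The median log2 change was -0.63, a 1.55-fold lower intensity, against -0.01 over all genes, and 44 of 47 values lay below 0. In 34 genes the 3 CHX arrays lay below the 3 mock arrays without overlap (23.6% of all genes). The genes tested reach down to a highest intensity of 8.5, below the array medians of 9.6 to 10.8, where a fall can hardly show. Most genes of the group were brighter, and the shares of all genes here and below were not matched for intensity. An array value is relative to the rest of the array, synthesis, processing and decay of the labelled RNA during the pulse cannot be told apart, and in bulk RNA fewer cells making a transcript and less of it per cell cannot be told apart.

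The arrays with an IFN gave separate measurements of the same effect. With IFNα present 26 of 47 genes were lower with CHX (8.42% of all genes) and 0 higher (6.88%), with a median of -0.67 against -0.01. With IFNγ present 23 were lower (12.7% of all genes) and 0 higher (6.12%), with a median of -0.73 against -0.01. In all 3 of these comparisons 19 genes (40.4%) were lower, against 5.92% of all genes, 6 were lower in 2 of them, 4 in 1 and 18 in none. The value was below 0 in all 3 for 39 of 47 genes, against 37.2% of all genes.

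With the 3 states averaged, 9 arrays against 9, 32 members were lower (22.8% of all genes) and 1, *Ltv1*, was higher (14% of all genes). In 23 genes every CHX array lay below every array without CHX, where 10.3% of all genes showed this. The single-state counts rest on the spread shared by all 18 arrays: fitted on the 6 arrays compared alone, 7, 10 and 5 members were lower without IFN, with IFNα and with IFNγ. Without mock replicate 1 or CHX replicate 3 the count of CHX against mock fell to 13 or 15, and that with IFNα fell to 17, 15 and 17 without IFNα replicate 2, IFNα replicate 3 and IFNα with CHX replicate 3. Without the 2 arrays of lowest upper quartile, 22, 28 and 21 members were lower.

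The counts also rest on the probe set that stands for a gene, since 34 of the 47 genes had several tested. Of the 97 probe sets, 36, 39 and 36 were lower in the 3 states and 0 were higher. In CHX against mock 17 of the 34 genes were lower by the chosen probe set. In 5 of these (*Polr1e*, *Utp18*, *Nop16*, *Rrp1b* and *Ddx18*) every other probe set passed as well, that of *Nop16* near the floor of the arrays. In 10 no other did: *Fbl*, *Nhp2*, *Nolc1*, *Wdr75*, *Pes1*, *Wdr12*, *Noc2l*, *Noc3l*, *Rrs1* and *Nip7*. In *Nop56*, *Dkc1* and *Bop1* another probe set was lower although the chosen one did not pass. With the 3 states averaged 59 probe sets were lower and 2 higher, every other probe set passed in 15 of 23 such genes and none in 6, and 7 genes passed by another probe set only, *Gnl2* upward and *Polr1c*, *Polr1d*, *Dkc1*, *Ncl*, *Tsr1* and *Bop1* downward.

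**Figure D1:**
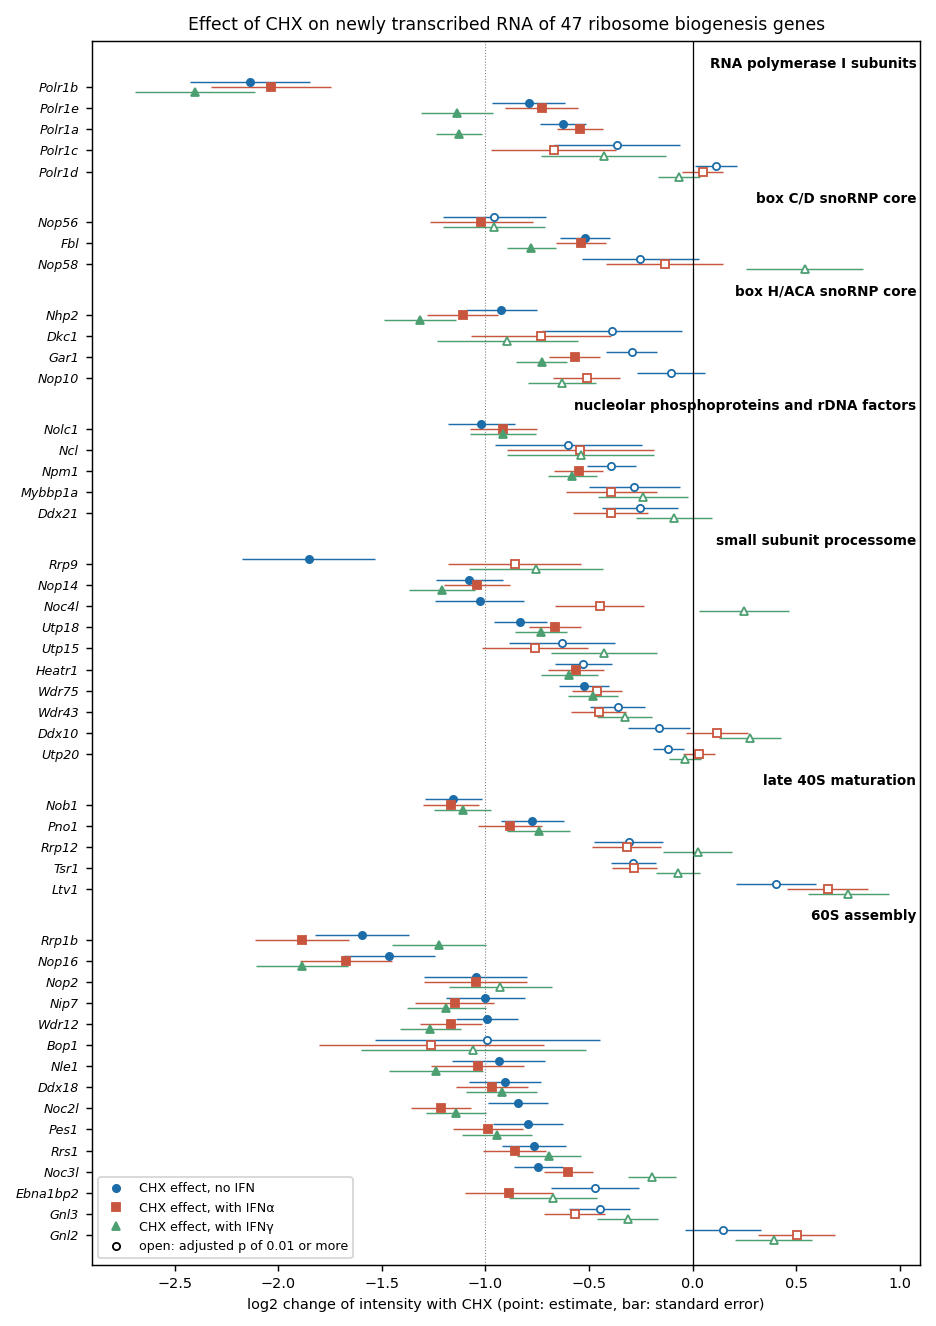
The log2 change of intensity with CHX (x axis, point with standard error) for the 47 genes, grouped by role and drawn without IFN (circles), with IFNα (squares) and with IFNγ (triangles); filled points passed an adjusted p under 0.01. Most points lie left of 0, *Polr1b* lies farthest left in all 3 states, and *Ltv1* and *Gnl2* lie to the right.

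Among the 5 subunits of RNA polymerase I in the group, 3 were lower with CHX in each of the 3 states. These 3 are subunits that RNA polymerase I does not share. *Polr1b*, which with *Polr1a* forms the catalytic core, had intensities of 362, 218 and 181 on the mock arrays and 48.0, 63.2 and 55.1 on the CHX arrays. With IFNα it had 342, 247 and 188 without CHX and 83.1, 60.0 and 46.1 with it, and with IFNγ 423, 264 and 262 against 62.1, 53.1 and 60.2. The 9 CHX arrays lay far below the other 9, and the change was the largest of the 47 genes in each state: -2.14 (SE 0.29, limma adjusted p = 1.41e-04), -2.04 and -2.40 on the log2 scale, or 4.40-, 4.10- and 5.29-fold lower.

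*Polr1a*, the gene of the largest subunit, had 295, 271 and 313 in mock and 186, 185 and 198 with CHX. Its change was -0.63 (SE 0.11, limma adjusted p = 0.00115) without IFN and -1.13 (7.51e-06) with IFNγ, where the arrays read 330.2, 346 and 333 without CHX and 170.0, 166 and 130.2 with it. A second probe set of *Polr1a* gave -1.05 in CHX against mock, and its other 3 probe sets, at 2.55 to 3.34 on the log2 scale and so near the floor of the arrays, gave -0.06 to 0.19. *Polr1e*, a subunit of the polymerase that helps it to start, was dimmer, at 91.4, 57.3 and 74.9 in mock and 44.6, 37.5 and 45.2 with CHX, a change of -0.79 (SE 0.17, limma adjusted p = 0.00531). Its other probe set had -0.81, -0.75 and -1.05 and passed without IFN and with IFNγ (adjusted p = 0.0112 with IFNα).

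The remaining pair, *Polr1c* and *Polr1d*, encode subunits that RNA polymerase III also contains, and neither passed in any state. *Polr1c* had -0.36, -0.67 and -0.43, with SE 0.30, and its other probe set -0.72, -0.69 and -0.76, which passed with the states averaged (-0.72, adjusted p = 8.77e-04). *Polr1d* read 1720, 1510 and 1698 in mock and 1955, 1695 and 1683 with CHX, and its changes were 0.11, 0.05 and -0.06. The 95% interval of this probe set of *Polr1d* over the 3 states ran from -0.09 to 0.16, which leaves out a change the size of that of *Polr1a*. The 4 probe sets of *Polr1d* gave -0.25 to 0.21 in CHX against mock, and another of them was lower with the states averaged (-0.43, adjusted p = 0.00667).

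**Figure D2:**
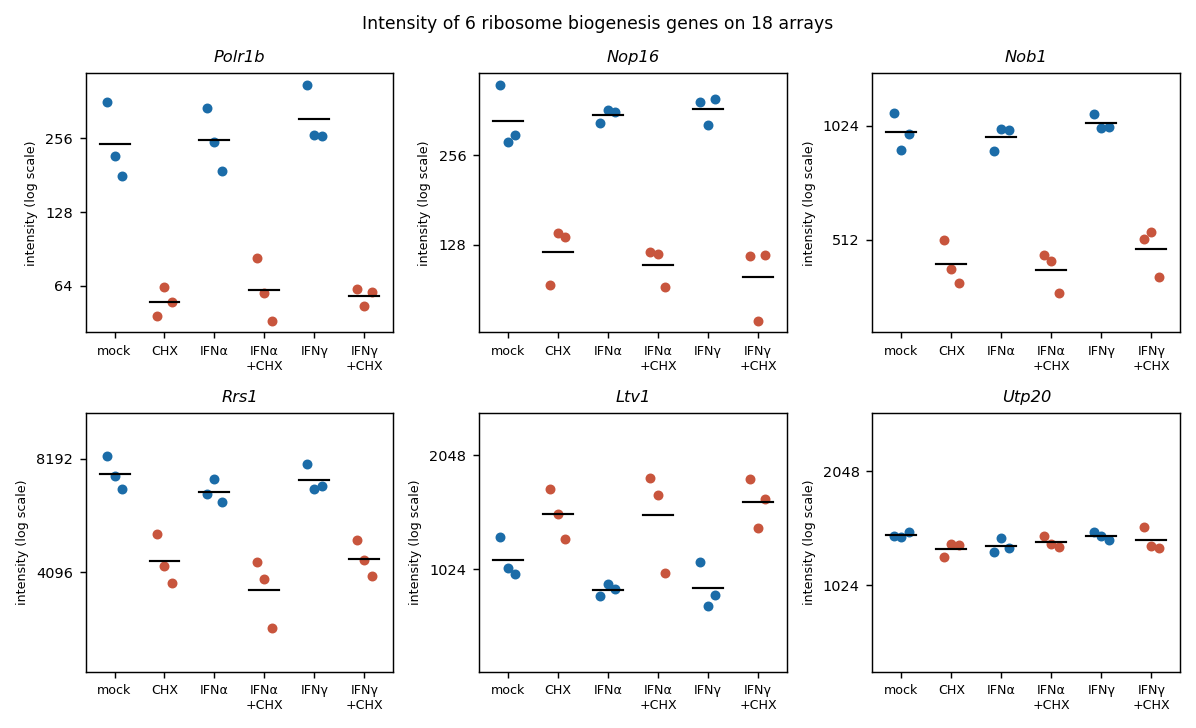
Intensity (y axis, log scale) of 6 genes on each of the 18 arrays by treatment, arrays with CHX in red and without in blue, with a line at the geometric mean of 3 arrays. *Polr1b*, *Nop16*, *Nob1* and *Rrs1* are lower on all 9 CHX arrays, *Ltv1* is higher with CHX on average over the 3 states, and *Utp20* keeps one level.

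The snoRNP proteins moved unevenly. Box C/D particles place methyl groups on ribosomal RNA through the methyltransferase fibrillarin, whose gene *Fbl* read 2935, 2655 and 2985 in mock and 1633, 2106 and 2291 with CHX. *Fbl* was lower in all 3 states, at -0.52 (SE 0.12, limma adjusted p = 0.00700), -0.54 and -0.78, and its other probe set had -0.46, -0.49 and -0.79 with SE 0.29 and did not pass. Of its scaffold partners, *Nop56* had about the same change in each state, -0.96, -1.02 and -0.96 with SE 0.25, and passed with IFNα (adjusted p = 0.0138, 0.00898 and 0.0113). The other probe set of *Nop56* had -1.16, -1.19 and -1.02 and passed without IFN and with IFNα (adjusted p = 0.00864, 0.00691 and 0.0157). The mock arrays of the former read 9589, 6736 and 6505 and its CHX arrays 5176, 3244 and 3429, without overlap. *Nop58*, the other scaffold, had -0.25, -0.13 and 0.54 with SE 0.28 and passed in none.

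Box H/ACA particles convert uridines of ribosomal RNA to pseudouridine. *Nhp2* was lower in all 3 states, from 2879, 2129 and 2732 in mock to 1257, 1598 and 1223 with CHX, with changes of -0.92 (SE 0.17, limma adjusted p = 0.00177), -1.11 and -1.31. Its other probe set had -0.80 (adjusted p = 0.0137), -1.04 and -1.29 and passed with either IFN. *Gar1* had -0.29, -0.57 and -0.73 and passed with either IFN, and *Nop10* had -0.10, -0.51 and -0.63 and passed with the states averaged (-0.42, adjusted p = 0.00245), while its other probe set passed with IFNγ as well (-0.94). *Dkc1*, the gene of the pseudouridine synthase itself, had -0.39, -0.73 and -0.89 with SE 0.34 and did not pass, while another of its 3 probe sets was lower in each state, with -1.52 (adjusted p = 4.32e-04) in CHX against mock. The 2 readings of *Dkc1* therefore depend on the probe set.

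Of the abundant nucleolar proteins, *Nolc1*, a chaperone of snoRNPs, was lower in each state. It had 3297, 2529 and 2808 in mock and 1478, 1391 and 1368 with CHX, a change of -1.02 (SE 0.16, limma adjusted p = 4.68e-04). Its other probe sets had -0.89 (adjusted p = 0.0169) and -1.15 (0.321). *Npm1*, which encodes nucleophosmin, was lower with IFNα (-0.55) and IFNγ (-0.58) and read 16802, 15706 and 16362 in mock against 11941, 11468 and 13947 with CHX, a change of -0.39 that did not pass (adjusted p = 0.0313) although the arrays did not overlap. Its other probe set had -0.83, -0.79 and -0.82 with SE 0.28 and passed in no single state. *Ncl*, the gene of nucleolin, varied widely between replicates, from 13169 to 19678 in mock and from 6748 to 16144 with CHX, and its changes of -0.60, -0.54 and -0.54 (SE 0.35) did not pass, while a pair of its 5 probe sets passed with the states averaged (-0.62 and -0.55). *Mybbp1a* and the helicase gene *Ddx21* had changes between -0.39 and -0.09, and neither passed.

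The small subunit processome, with 10 genes, had 5 lower without IFN, 3 with IFNα and 4 with IFNγ. *Nop14* (-1.08, -1.04 and -1.21) and *Utp18* (-0.83, -0.66 and -0.73) were lower in all 3. *Nop14* read 633, 479.9 and 561 in mock and 268, 241 and 281 with CHX, and *Utp18* read 1423, 1251 and 1086 against 729.6, 658 and 716. In both genes every CHX array lay below every array without CHX. *Wdr75* had -0.52, -0.46 and -0.48 and *Heatr1* -0.53, -0.56 and -0.59, and each passed in 2 states. Their other probe sets, with SE up to 0.79, did not pass.

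Not all of the processome followed. *Utp20*, a very large scaffold protein, read 1377, 1369 and 1412 in mock and 1212, 1319 and 1308 with CHX, and its changes were -0.12, 0.03 and -0.04. The 95% interval of *Utp20* over the 3 states was -0.14 to 0.05, which leaves out the group's median of -0.67. The helicase gene *Ddx10* had -0.16, 0.12 and 0.28 and did not pass, and *Wdr43* (-0.36, -0.45 and -0.33) and *Utp15* (-0.63, -0.76 and -0.43) passed only with the states averaged, the latter not by its other probe set (-0.23, -0.18 and 0.31). *Rrp9* and *Noc4l* were lower with CHX without IFN alone and are taken up with IFNγ.

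Late maturation of the 40S subunit held both the gene of lowest adjusted p in CHX against mock and *Ltv1*, which rose over the 3 states. *Nob1*, the endonuclease that makes the final cut of 18S ribosomal RNA, read 1108, 880.5 and 975 in mock and 511, 429 and 394 with CHX. Its change was -1.15 (SE 0.14, limma adjusted p = 4.80e-05), -1.17 and -1.11 in the 3 states, and every CHX array lay below every array without CHX. *Pno1*, which binds next to that cut and works with Nob1, had -0.77, -0.88 and -0.74 and was lower in each state as well.

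*Ltv1*, an assembly factor that leaves the 40S particle late, went the other way. It read 1244, 1030 and 996 in mock and 1667, 1434 and 1233 with CHX, overlapping by 1 array. With IFNα it read 869, 936 and 908 without CHX and 1779, 1607 and 1004 with it, and with IFNγ 1069.7, 820.3 and 875 against 1777, 1318 and 1568, without overlap in either. The changes were 0.40, 0.65 and 0.75 (SE 0.19) with adjusted p of 0.178, 0.0284 and 0.0116, and over the 3 states 0.60 (95% interval 0.36 to 0.84, limma adjusted p = 5.69e-04), a 1.52-fold rise. *Tsr1* (-0.29, -0.28 and -0.07) and *Rrp12* (-0.31, -0.32 and 0.02) did not pass, though another probe set of *Tsr1* passed with the states averaged (-0.41, adjusted p = 0.00450).

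Assembly of the 60S subunit had 11 of 15 genes lower without IFN, 12 with IFNα and 9 with IFNγ, with medians of -0.91, -1.04 and -0.94. *Nop16* read 442, 285 and 299 in mock and 93.7, 140.3 and 136 with CHX, and its changes were -1.47 (SE 0.22, limma adjusted p = 3.52e-04), -1.67 and -1.88, or 2.76-, 3.19- and 3.69-fold lower. *Rrp1b* was 3.02-fold lower without IFN, 3.70-fold with IFNα and 2.33-fold with IFNγ. The 3 probe sets of *Rrp1b*, the 3 of *Ddx18* and the 2 of *Nop16* were each lower. The second probe set of *Nop16* was near the floor of the arrays, at 13.6, 17.5 and 11.5 in mock and 7.9, 6.9 and 6.4 with CHX.

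The PeBoW complex, which joins Pes1, Bop1 and Wdr12 and is needed to process the precursor of the large subunit, was read through all of its genes. *Wdr12* read 599, 583.5 and 634 in mock and 254, 314 and 353 with CHX, and *Pes1* read 708.5, 617 and 735.5 against 455, 353 and 383.5. Both were lower in all 3 states, at -0.99, -1.17 and -1.27 for *Wdr12* and -0.79, -0.99 and -0.94 for *Pes1*. The second, dimmer probe set of each differed: that of *Wdr12* had -0.38, -0.32 and -0.91 and passed with IFNγ (adjusted p = 0.233, 0.351 and 0.00555), and that of *Pes1* had -0.28, -0.34 and -0.02 and passed in none (adjusted p = 0.265, 0.181 and 0.941). *Bop1* had changes of the same size, -0.99, -1.26 and -1.06, but its arrays spread from 309.5 to 659 in mock and from 111 to 360 with CHX (SE 0.54) and it did not pass, while its other probe set did in each state (-0.91, -1.03 and -1.19, adjusted p = 0.00212 in CHX against mock).

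*Nip7*, *Noc2l*, *Nle1*, *Ddx18* and *Rrs1* were also lower in all 3 states. *Nip7* read 5319, 3897 and 4018 in mock and 2595, 2047 and 1960 with CHX, and the changes of *Noc2l*, *Nle1*, *Ddx18* and *Rrs1* without IFN were -0.84, -0.94, -0.91 and -0.77. *Rrs1*, whose protein helps to dock the particle of 5S ribosomal RNA, was among the brighter ones at 8301, 7379 and 6799 in mock against 5172, 4265 and 3838 with CHX. A second probe set of *Rrs1* had -0.29 (adjusted p = 0.121), -0.73 and -0.41 and passed with IFNα. That of *Nip7* had -0.61, -0.93 and -0.78 and passed in no single state, and that of *Noc2l* had -1.06, -1.88 and -1.30 and passed with IFNα. *Nop2*, a methyltransferase of the large ribosomal RNA, was lower without IFN (-1.05) and with IFNα (-1.05) and read -0.93 with IFNγ (adjusted p = 0.0144). *Noc3l* had -0.74 and -0.60 and passed in these states, and read -0.20 with IFNγ, and its other probe set had -0.65, -0.53 and -0.72 with SE 0.30 and passed in no single state. *Ebna1bp2* had -0.47, -0.88 and -0.67 and passed with IFNα. *Gnl3*, the nucleostemin gene, passed only with the states averaged (-0.44).

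The related GTPase gene *Gnl2* had changes above 0 by every probe set, of which 1 passed. The brightest of its 3 had 0.15, 0.50 and 0.39 and did not pass. Another read 833, 552.6 and 571.5 in mock and 1322, 880.6 and 1014 with CHX, without overlap in any state, and had 0.72 (adjusted p = 0.0112), 0.57 and 0.63 with SE 0.18. It passed over the 3 states (0.64, limma adjusted p = 1.77e-04), and with that of *Ltv1* these were the 2 of the 97 that were higher. The third probe set of *Gnl2* had 0.19, 0.29 and 0.52 and did not pass.

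Whether the effect of CHX itself differed between IFN states was tested as an interaction. None of the 47 genes passed for IFNα or for IFNγ, where 0.297% and 0.305% of all genes passed upward and 0% and 0.0578% downward. At an unadjusted p under 0.05 there were 1 and 6 of 47 (5.11% and 9.45% of all genes), and the lowest adjusted p were 1 and 0.103 (*Noc4l*). The median half-width of the 95% interval of these differences was 0.51. With 3 arrays a treatment, differences larger than that could also fail to pass, as that of *Noc4l* did at 1.28. Counts that differ between the states, such as 3 and 5 processome genes, are thus not shown to differ.

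Few of these genes, and few of all genes, passed between IFN and no IFN, without or with CHX. IFNα against mock gave 0 members lower and 0 higher (0.099% and 0.644% of all genes). At an unadjusted p under 0.05 there was 1, *Noc4l* (7.86% of all genes). IFNα with CHX against CHX gave 0 and 0 (0% and 1.31%), with 3 at an unadjusted p under 0.05 (4.69%). IFNγ against mock gave 0 lower and 1 higher, *Noc4l* (0.569% and 2.51%), with 5 at an unadjusted p under 0.05 (13.7%). IFNγ with CHX against CHX gave 0 lower and 4 higher, *Noc4l*, *Rrp9*, *Rrp12* and *Rrp1b* (1.42% and 4.35%), with 11 at an unadjusted p under 0.05 (20.6%). Fitted on the 6 arrays of this comparison alone, *Noc4l* was the only member that passed. The medians of the 47 genes in these comparisons lay between -0.11 and 0.02.

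*Noc4l*, a processome factor that pairs with Nop14 in the particle, had the largest IFN response. It read 528.5, 418 and 510.3 in mock, 652, 763 and 699.5 with IFNα and 1823, 1415 and 1539 with IFNγ. With CHX it read 200.1, 307 and 216 alone, 538, 630.3 and 404 with IFNα and 2497, 1838 and 1449 with IFNγ. The IFNγ arrays lay above all arrays without IFNγ, with or without CHX. The rise with IFNγ was 1.71 (SE 0.22, limma adjusted p = 1.63e-04), or 3.28-fold, without CHX and 2.99 (SE 0.22, adjusted p = 2.83e-07), or 7.94-fold, with CHX.

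The 4 probe sets of *Noc4l* gave 1.71 to 1.94 without CHX, where 3 passed, and 2.57 to 3.02 with CHX, where all 4 passed. Tested as an interaction, the IFNγ response of *Noc4l* was larger under CHX by 1.28 (95% interval 0.62 to 1.93, limma adjusted p = 0.103) and did not pass. With IFNα the values were 0.54 (adjusted p = 0.663) without CHX and 1.12 (adjusted p = 0.0134) with CHX, neither of which passed. *Noc4l* was lower with CHX without IFN (-1.03, limma adjusted p = 0.00382) by this and 1 more of its 4 probe sets, while the others had -0.42 and -0.45. The call of *Noc4l* was lost without any one of mock replicates 1 and 3 and CHX replicates 1 and 3 (highest adjusted p 0.0188), and its CHX change was -0.45 with IFNα and 0.25 with IFNγ.

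*Rrp9*, a protein of the U3 snoRNP that guides the first cuts of the precursor, was dim and moved in both directions. It read 69.3, 47.2 and 54.0 in mock and 14.7, 18.6 and 13.7 with CHX, the latter close to the array medians, and fell by 1.85 on the log2 scale (SE 0.32, limma adjusted p = 0.00102). With IFNγ it read 167, 111 and 118 without CHX and 129.5, 85.8 and 40.7 with it. IFNγ with CHX therefore lay above CHX without overlap, by 2.31 (SE 0.32, adjusted p = 2.48e-04), and IFNγ above mock by 1.21 (adjusted p = 0.0592). With IFNα the values were 0.45 without and 1.44 with CHX (adjusted p = 0.0447).

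*Rrp12* and *Rrp1b* rose less. *Rrp12*, an export factor of the pre-40S particle, read 364, 375 and 298 with CHX and 766.5, 747.5 and 556 with IFNγ and CHX, a rise of 0.99 (SE 0.17, limma adjusted p = 0.00132). Without CHX it was higher by 0.66, which did not pass (adjusted p = 0.0444). *Rrp1b* read 558, 405 and 313 with CHX and 1088, 1036 and 747 with IFNγ and CHX, a rise of 1.19 (SE 0.23, limma adjusted p = 0.00342), against 0.82 (adjusted p = 0.0678) without CHX, where the IFNγ arrays (2416, 2455 and 1808) lay above the mock arrays (1527, 1177 and 1085). One of the 3 probe sets of *Rrp1b* read 0.54 (adjusted p = 0.197), and the call of *Rrp1b* was lost without any one of CHX replicates 2 and 3 and replicates 1 and 2 of IFNγ with CHX (highest adjusted p 0.0200). The call of *Rrp12* was lost without the 2 arrays of lowest upper quartile.

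**Figure D3:**
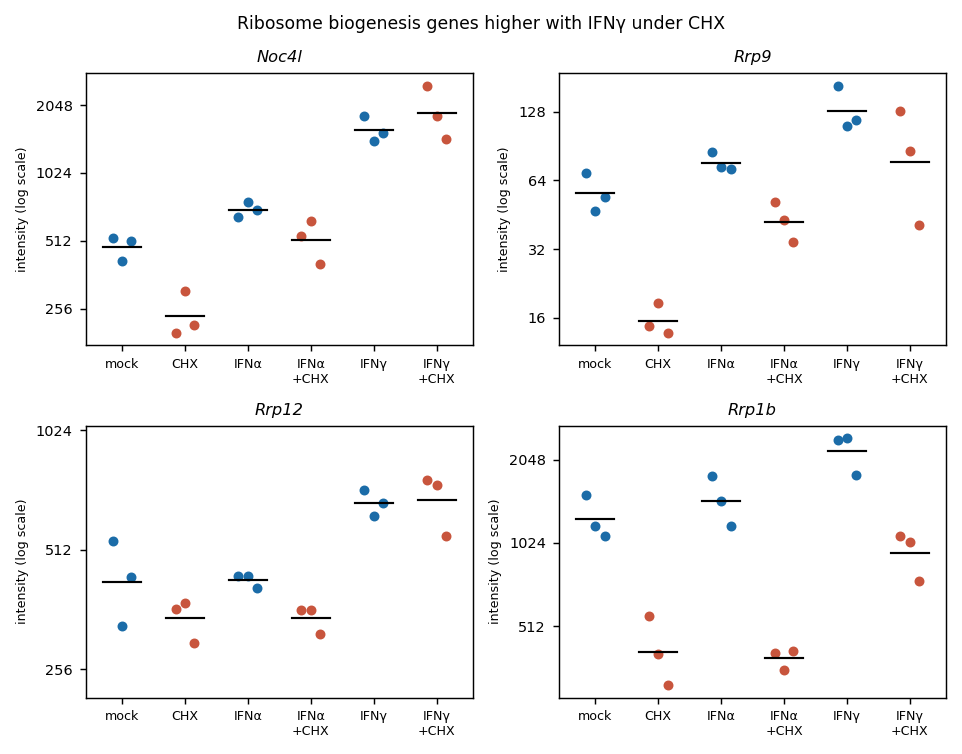
Intensity (y axis, log scale) of *Noc4l*, *Rrp9*, *Rrp12* and *Rrp1b* on each of the 18 arrays by treatment, arrays with CHX in red and without in blue, with a line at the geometric mean of 3 arrays. The 3 arrays of IFNγ with CHX lie above the 3 of CHX in each gene, and *Rrp1b* is lower with CHX in every IFN state.

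The protein-coding genes next to these genes in RefSeq were looked up after their values were known. Of the 5 that were measured, *Ddx51*, *Parp3*, *Frat2*, *Pgam1* and *Hsf2bp*, *Parp3*, next to *Rrp9*, was the only one that passed with IFNγ. *Parp3* rose by 2.50 (limma adjusted p = 5.58e-06) without CHX and by 1.84 (6.03e-05) with it. *Ddx51*, next to *Noc4l*, had 0.58 (adjusted p = 0.255) and 0.53 (0.202). *Frat2*, next to *Rrp12*, had 1.21 (limma adjusted p = 0.182) and 1.62 (0.0254), and *Pgam1* on its other side -0.07 and -0.15. *Hsf2bp*, next to *Rrp1b*, had 0.02 without CHX and 0.56 (limma adjusted p = 0.047) with it.

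The other genes of the pathway and its neighbours give the scale. Over all genes, 9.92%, 8.42% and 12.7% were lower with CHX without IFN, with IFNα and with IFNγ. In these states 4.57%, 6.88% and 6.12% of all genes were higher. Of 94 further ribosome biogenesis factors outside the 48, 22, 25 and 27 were lower with CHX without IFN, with IFNα and with IFNγ, and 2 were higher in each, with medians of -0.37, -0.48 and -0.44. *Tcof1*, the treacle gene, needed for transcription of ribosomal DNA, was the lowest of these that passed, at -1.65 (SE 0.24, limma adjusted p = 2.52e-04). Of 14 other genes of RNA polymerase I and its factors 3, 3 and 4 were lower, among them *Ubtf*, whose protein holds ribosomal DNA in an active form (-1.35, -1.53 and -1.96). Of 21 genes of RNA polymerase III 3, 3 and 5 were lower, led by *Polr3g* at -2.72 (SE 0.26). In CHX without IFN *Polr3g* read 3.26 to 3.64 on the log2 scale, near the floor of the arrays, so the size of its fall is uncertain. Of 8 genes of RNA polymerase II 1, 3 and 5 were lower.

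Genes of the nuclear exosome, which trims the precursor, were lower in 3, 2 and 4 of 14. Host genes of snoRNAs, whose introns hold the guide RNAs, were lower in 4, 4 and 7 of 14, led by *Snhg3* (-2.03). Of 79 cytosolic ribosomal protein genes listed only 43 had a tested probe set of their own. Of these 2, 3 and 12 were lower, with medians of -0.16, -0.29 and -0.43. Without IFN and with IFNα this share was below the 9.92% and 8.42% of all genes. With IFNγ it was above the 12.7% of all genes. Among 11 genes of Myc, its partners and factors that oppose it 3, 2 and 4 were lower. *Myc* itself had 0.04 (SE 0.25, limma adjusted p = 0.919), 0.18 and 0.10 with CHX. These are values of its labelled RNA, and the arrays do not read Myc protein. *Mxd4* (-1.77), *Mnt* (-1.62) and *Mxi1* (-1.35), which encode proteins that oppose Myc, were lower in CHX against mock. The differences between lists were not tested.

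**Figure D4:**
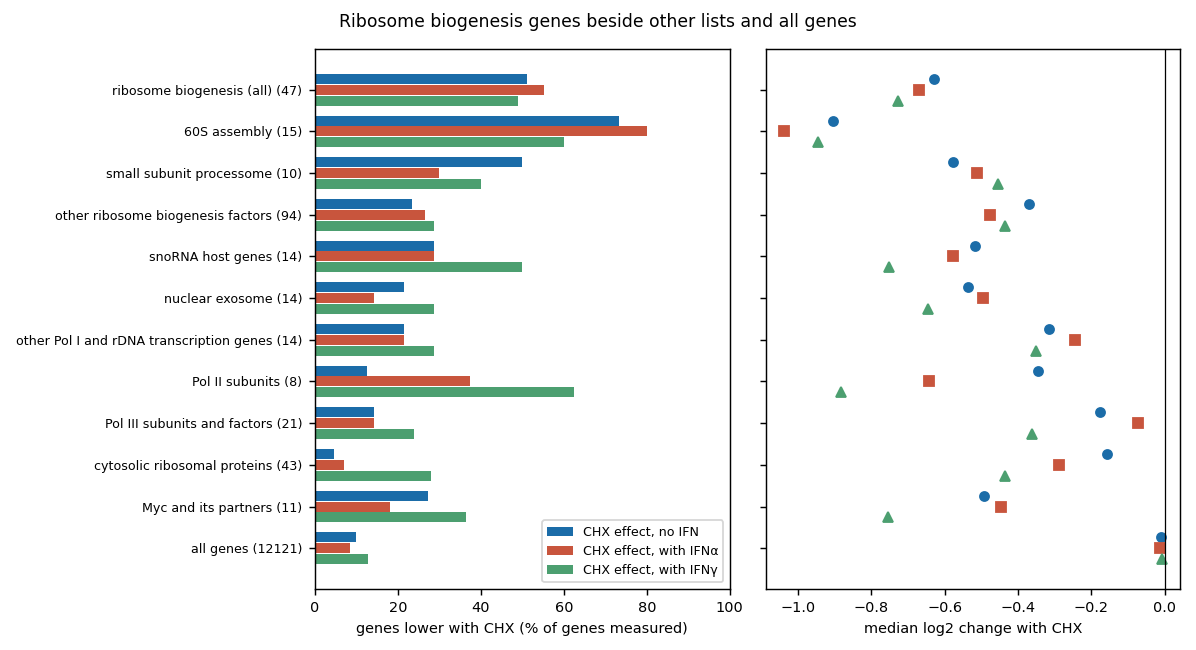
Left, the share of measured genes that were lower with CHX (x axis, percent, from 0) for the ribosome biogenesis genes, the 2 roles with most genes, 8 other lists and all genes, with the number of genes measured in brackets; right, the median log2 change of each. The 47 genes, both roles and all other lists except cytosolic ribosomal proteins have shares above that of all genes in each IFN state. All medians of the lists lie below 0.

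The promoters of these genes were read for 3 kinds of motif on both strands, from 250 bases before to 50 after the start. The table of RefSeq promoters used here (GRCm38.p6) held 42 of the 48 genes. CACGTG, the E-box that Myc and Max bind, was present for 10 of the 42 (23.8%), against 11.4% of 9821 tested genes with a promoter and 7.2% of all 32851 promoters. An E2F motif (TTTGGCGC, TTTCCCGC, TTTCGCGC or TTTGCCGC) was present for 4 of 42 (9.5%; 4.8% of tested genes, 2.3% of all promoters), and TATAAA for 2 of 42 (4.8%; 9.7% and 13.6%).

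The 10 genes with CACGTG fell into both kinds. *Nle1*, *Pes1*, *Pno1* and *Utp18* were lower with CHX in all 3 states and *Nop2* in 2, while *Ltv1*, *Mybbp1a*, *Tsr1*, *Utp20* and *Wdr43* were lower in none. The median change in CHX against mock was -0.57 with the motif (n = 10) and -0.74 without it (n = 31). Over all tested genes it was -0.12 with the motif (n = 1119, 14.4% lower) and -0.0018 without it (n = 8702, 9.4% lower). Shown are a pair that fell and a pair that did not, with CACGTG in capitals: *Utp18* (chr11:93885717-93886016, minus strand), *Nop2* (chr6:125131633-125131932, plus strand), *Ltv1* (chr10:13193088-13193387, minus strand) and *Utp20* (chr10:88826765-88827064, minus strand), each written 5′ to 3′ along the gene.
Utp18: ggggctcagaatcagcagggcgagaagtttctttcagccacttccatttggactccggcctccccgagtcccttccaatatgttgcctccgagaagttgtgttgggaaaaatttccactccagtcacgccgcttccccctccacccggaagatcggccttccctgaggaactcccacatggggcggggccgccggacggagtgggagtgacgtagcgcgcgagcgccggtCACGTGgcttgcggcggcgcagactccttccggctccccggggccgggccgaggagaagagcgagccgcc
Nop2: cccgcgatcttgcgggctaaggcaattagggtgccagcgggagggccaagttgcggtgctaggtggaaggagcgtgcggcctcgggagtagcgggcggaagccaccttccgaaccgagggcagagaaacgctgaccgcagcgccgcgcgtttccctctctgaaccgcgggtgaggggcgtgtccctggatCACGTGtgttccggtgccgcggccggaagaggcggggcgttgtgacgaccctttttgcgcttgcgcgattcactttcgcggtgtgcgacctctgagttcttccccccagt
Ltv1: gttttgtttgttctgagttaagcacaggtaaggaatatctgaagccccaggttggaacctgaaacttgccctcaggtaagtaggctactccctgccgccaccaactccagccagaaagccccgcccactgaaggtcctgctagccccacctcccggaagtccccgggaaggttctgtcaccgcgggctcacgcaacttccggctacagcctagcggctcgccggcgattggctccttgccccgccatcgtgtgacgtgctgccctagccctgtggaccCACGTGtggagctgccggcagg
Utp20: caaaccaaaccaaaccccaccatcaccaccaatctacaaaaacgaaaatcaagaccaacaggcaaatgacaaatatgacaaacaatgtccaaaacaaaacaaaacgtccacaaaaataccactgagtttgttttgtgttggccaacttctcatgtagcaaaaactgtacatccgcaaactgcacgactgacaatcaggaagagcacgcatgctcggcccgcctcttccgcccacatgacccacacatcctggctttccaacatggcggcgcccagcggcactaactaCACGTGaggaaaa

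The motif begins 20 bases before the start in *Utp18* and 60 before it in *Nop2*, and at base 29 after the start in *Ltv1* and base 38 in *Utp20*. A match to these letters is a description of the sequence and no evidence of binding.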

How the data were processed

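The authors purified 4sU-labelled RNA, hybridised it to Affymetrix mouse genome arrays and deposited 1 linear intensity per probe set and array, which per their methods came from gc-RMA; the submitters' processing notes name Affymetrix Expression Console, with no version. No raw images were read here. From 45101 probe sets 64 controls were left out, and the 27773 with the highest value on any array (8.5 or more) were kept, as many as the study kept by its present calls, with ties. Gene symbols came from the platform annotation, where 34945 of 45037 probe sets had 1 symbol, 932 several and 9160 none.

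The log2 of the intensity was fitted with limma 3.58.1 under R 4.3.3 in a single model of the 6 treatments and 18 arrays, without the replicate number (12 residual and 2.05 prior degrees of freedom). P-values were Benjamini-Hochberg adjusted over all probe sets kept, separately for each comparison, and called under 0.01. Changes of at least 2-fold were counted separately. Each gene was its kept probe set with the highest mean. The fit was tested on simulated data. Alternatives were log2(value + 1) and log2(value + 16), no or a stricter filter, quantile normalization, median centring, only the arrays compared, the replicate number as a block, the median over the probe sets of a gene, and each array left out. Leaving out 2 arrays of low upper quartile was added after the data had been seen.

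The members, the gene lists, the motifs and the tests were chosen with earlier results of these data known. Every member could be named; of other lists, at most the 3 genes with the largest change among those passing in CHX against mock, and *Myc*. The neighbours of *Noc4l*, *Rrp9*, *Rrp12* and *Rrp1b* were named after their values were seen. The 3 arrays per treatment, labelled biological replicates, limit the precision.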

Additional observations from a re-analysis of the deposited data

How the results depend on the processing

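No value of the 47 members was singled out as far from its replicates, since groups of 3 arrays were not tested for this. With CHX, all 24, 26, 23 and 33 calls of members (CHX against mock, with IFNα, with IFNγ, and over the 3 states) passed with log2(value + 1), log2(value + 16), median centring and the replicate block. No filter kept 22, 21, 23 and 33 of them, quantile normalization 20, 24, 22 and 33, and only the arrays compared 7, 9 and 5, since 4 residual degrees of freedom remain there; over the 3 states the arrays compared are all 18, so this alternative was not run. Under every alternative run 4, 7, 4 and 31 calls passed, among them *Nob1* in each comparison. Only the arrays compared gave 7, 10 and 5 members lower, and 1 higher with IFNγ under CHX in place of 4. The replicate block moved the members higher to 1 with IFNα, 1 with IFNγ and 2 over the 3 states, those passing with IFNγ to 2, and with IFNα under CHX to 1. The stricter filter gave 1 higher in CHX with IFNγ and 1 passing with IFNα under CHX, and the median over the probe sets of a gene 2 higher in CHX with IFNγ and 2 over the 3 states. Median centring moved the members' medians to -0.71, -0.80 and -0.73 (CHX against mock, with IFNγ, over 3 states) and to 0.0128 for IFNγ under CHX. The median over probe sets moved them to -0.74 (CHX with IFNα) and -0.0219 (IFNγ under CHX), and leaving out the 2 arrays of low upper quartile to -0.72 (3 states) and 0.0348 (IFNγ under CHX). With each array left out, members lower ranged from 13 to 24 (CHX against mock) and 15 to 26 (with IFNα), members higher from 0 to 1 with IFNα and with IFNγ and from 1 to 2 over the 3 states, and members passing from 1 to 2 with IFNγ and from 0 to 2 with IFNα under CHX. Their medians ranged from -0.74 to -0.63, -0.76 to -0.63, -0.70 to -0.61 (CHX against mock, with IFNα, over 3 states), -0.0237 to 0.0937 (IFNγ) and -0.0495 to 0.0697 (IFNγ under CHX). *Polr1a* reversed with the median over its 5 probe sets, to 0.14, 0.15 (with IFNγ) and 0.0865 (3 states), since 3 of them are near the floor. Same-numbered arrays of different treatments deviated together in part (r from -0.40 to 0.78, over 0.1 in 38 of 45 pairs, 14 of 18 arrays closest to their own number), which hints at a shared replicate effect (r from 0.35 to 0.78 among the arrays numbered 1). No label says what a number shares, and not every pair was over 0.1, so the fit without the block was kept. With the replicate block 29, 29, 26 and 38 members were lower.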
